A study of Mus musculus with 5 samples.

Results

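PU.1-only promoters were places near a transcript start where the PU.1 library of Th9 cells had a ChIP-Seq summit and the BATF library had none. A summit is the single base at which a called peak is highest. Members were selected on the summit lists themselves. A PU.1 summit on chromosomes 1 to 19 or X was kept when it lay within 1000 bp of an annotated transcript start (GENCODE M21, mm10) and when no BATF, Input, goat Ig or rabbit Ig summit lay within 500 bp. This left 675 of the 8947 PU.1 summits, or 7.54%. Of 1346 PU.1 summits near a start, 124 were removed for a summit of Input or Ig, and 547 of the remaining 1222 were set apart because BATF was near. The absence of BATF and of control summits was therefore fixed by the choice and is not a result.

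There was 1 library each for PU.1, BATF, Input (sheared chromatin without antibody), goat Ig and rabbit Ig, 5 in all. All came from WT Th9 cells, made from naive CD4 T cells of spleen and lymph nodes of C57/Bl6j mice aged 7 weeks. The cells were stimulated on plates coated with CD3 and CD28 antibodies in the presence of IL-4 (20 ng/ml), TGF-β (2 ng/ml) and an antibody that blocks IFNγ, for a time that the labels state only as a few hours and the paper as 24 h. Without replicates no test was made. Each share is given with its 95% interval by the exact Clopper-Pearson method, which accounts for counting error alone, since summits of 1 library are not replicates of a condition. The PU.1 and BATF antibodies came from rabbit, the species of the rabbit Ig. The depth of each library is unknown, and a list shows only places that passed the peak caller's threshold.

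PU.1, encoded by *Spi1*, is a transcription factor of the ETS family, whose members recognise a GGAA core. It is best known for directing myeloid and B cell development, and in T helper cells it favours the production of IL-9. BATF is a member of the AP-1 family that pairs with JUN proteins and acts with IRF4 in activated T cells. Many mammalian genes start in CpG islands, stretches rich in G, C and CpG dinucleotides, where general factors such as Sp1 and NRF1 bind.

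The members near the thresholds show what the choice depended on. Just inside the limit for a transcript start were the summits at *Gm14951* and *Gm24802*, both 999 bp from the start, and just outside were summits on chromosome 14 at positions 48365403 and 118235225, at 1001 and 1007 bp. The members with the nearest BATF summits were at *Ube2q2* (531 bp) and *Gpr27* (555 bp). The summits at *Cdv3* (499 bp) and *Snx9* (437 bp) were left out. For Input, the nearest members were at *Gm5893* (983 bp) and *Coil* (1144 bp), and the summits at *Gm17805* (490 bp) and *Gm3861* (428 bp) were left out. Of the 124 promoter summits near a control, 120 lay near Input and 4 near an Ig summit without Input, and these 4 also had BATF within 500 bp. The nearest goat Ig summits lay 22607 bp from the member at *Gm26736* and 60156 bp from that at *Gm22243*. For rabbit Ig these distances were 22625 bp at *Gm26736* and 37485 bp at *Krt9*. Few members were close to a limit for BATF: 8 had a BATF summit between 500 and 1000 bp away and 9 more had one within 5000 bp, and the median distance to the nearest BATF summit was 162557 bp. The nearest Input summit was within 5000 bp of 17 members.

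Most PU.1-only promoters lay in very GC-rich sequence. In the 200 bp around the summit, 483 of 675 (71.6%, 95% interval 68.0 to 74.9%) had at least 65% GC, under 25% of bases masked as repeat and no simple repeat. A simple repeat was called when over 50% of bases equalled the base found 1 to 6 bp earlier, at some fixed distance. Simple repeats made up 99 members (14.7%, 12.1 to 17.6%), a share that depended on the settings and ran from 6.70% with starts within 500 bp to 23.3% with starts within 2000 bp. A further 68 members (10.1%, 7.91 to 12.6%) lay in other sequence that was masked over at least 50% of the window, and 25 (3.70%, 2.41 to 5.42%) were in none of these classes. The members were thus split between CpG-rich gene starts and repeats, with little sequence of ordinary composition.

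The same windows were set beside those of the most similar summits. GC-rich windows held 514 of the 547 promoter summits with both PU.1 and BATF (94.0%, 91.6 to 95.8%) and 478 of the 557 promoter BATF summits without PU.1 (85.8%, 82.6 to 88.6%). The interval of the PU.1-only promoters lay below both. Simple repeats were correspondingly more common at PU.1-only promoters than at promoters with both factors, where they held 24 summits (4.39%, 2.83 to 6.46%), and than at promoters with BATF only (46 summits, 8.26%, 6.11 to 10.9%). The members had the largest share under each of 7 other settings, but the interval overlapped that of BATF only under 4 of them and that of both factors under 1. With starts within 500 bp the shares were 6.70% (4.74 to 9.16%) for members, 4.47% (2.82 to 6.69%) for BATF only and 3.47% (2.07 to 5.43%) for both factors, and with transcripts of protein-coding genes only they were 8.61%, 7.21% and 3.27%. The GC-rich share of the members was the smallest under all 7, and its interval overlapped that of BATF only when a RefSeq start was also required (86.9% against 92.0%, with 88.8 to 94.5% for the latter). Masked windows of other kinds were found at 0 of the 547 summits with both factors (upper bound 0.672%) and at 20 of the 557 with BATF only (3.59%). PU.1-only summits farther than 1000 bp from any start were of another kind, with 0.760% of 4342 in GC-rich windows, 52.3% in simple repeats and 43.2% in other masked sequence. Among 130588 windows placed on all annotated transcript starts, 20.98% were GC-rich, 1.05% were simple repeats and 5.49% were otherwise masked. PU.1-only promoters had larger shares of both GC-rich sequence and simple repeats than these windows. Those windows were centred on a start, while member windows lay up to 1000 bp from one. The simple-repeat members had a median distance of 662 bp, and the part of this placement was not tested.

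GC content was high even for promoters. The median window of a member had 78% GC, more than 96.0% of the 93145 windows at starts of protein-coding genes, whose median was 57%. Those windows covered every distinct annotated start, with internal and alternative ones included, so a gene could have several. Windows over 75% GC made up 68.9% of the members (465 of 675) and 7.06% of the protein-coding starts. At promoters with both factors the median was 81% and 96.2% of windows were over 75% GC. The ratio of observed to expected CpG had a median of 0.978 at the members, 1.06 at promoters with both factors, 0.505 at protein-coding starts and 0.108 at distal PU.1-only summits. GC above 50% with a CpG ratio above 0.6, the usual definition of a CpG island applied to a single window, was met by 507 members (75.1%, 71.7 to 78.3%). This was more than at all starts (33.1%) or protein-coding starts (41.8%) and less than at promoters with both factors (97.8%, 96.2 to 98.9%) or with BATF only (90.3%, 87.5 to 92.6%).

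The GC content was highest at the summit and fell away on both sides. Over all 675 members the median GC was 78% at the summit, 66.5% and 67% at 250 bp to either side, 54% at 500 bp on both sides, and 47% and 46% at 1000 bp. Promoters with both factors had the same form, with 81% at the summit, 72% and 73% at 250 bp and 47.5% at 1000 bp, and so had those with BATF only, with 80.5%, 69.5% and 70%, and 47.5%. At starts of protein-coding genes the median was 57% at the start itself, 53% and 52.5% at 250 bp and 46% at 1000 bp. Among GC-rich members the values were 79.5% at the summit and 70% and 71% at 250 bp, but that class is defined by GC in the summit window, which partly fixes such a peak. When 41 windows were taken every 50 bp within 1000 bp of the summit, that of the summit had the highest GC at 103 of all 675 members (15.3%, 12.6 to 18.2%) and was among the 5 highest at 373 (55.3%, 51.4 to 59.1%). With both factors these shares were 19.2% and 68.4%, and with BATF only 22.4% and 70.6%.

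The choice fixed that members lay within 1000 bp of a start. Within that limit the median distance to the nearest start was 161 bp, with quartiles of 54 and 410.5 bp, and 254 members (37.6%, 34.0 to 41.4%) lay within 100 bp. Of all bases within 1000 bp of a start, 12.7% lay within 100 bp, and their median distance was 461 bp. The summit was upstream of the nearest start at 276 members and at or downstream of it at 399 (59.1%, 55.3 to 62.8%), with a median position 34 bp downstream. At promoters with both factors the summit was closer, at a median of 108 bp, and 47.2% (42.9 to 51.4%) lay within 100 bp. Within GC-rich windows the groups were alike, with a median of 105 bp for members, 107 bp with both factors and 95 bp with BATF only, and with 48.7% (44.1 to 53.2%), 47.5% (43.1 to 51.9%) and 51.0% (46.5 to 55.6%) within 100 bp. Simple-repeat members had a median of 662 bp, against 179.5 bp for the 24 summits with both factors and 529 bp for the 46 with BATF only, and otherwise masked members one of 664 bp. Of the GC-rich members 33.7% were upstream of the start. In the simple-repeat class 57 of 99 summits were upstream, and 16 (16.2%, 9.53 to 24.9%) lay within 250 bp of a start, against 381 of 483 (78.9%) in the GC-rich class.

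Most GC-rich members lay inside an annotated gene, on either strand and not necessarily the gene of the nearest start. Of the 483, 20.9% of summits were in coding exons, 201 (41.6%) in UTRs, 17 in other exons, 107 (22.2%) in introns and 57 (11.8%) outside genes. Simple-repeat members were in introns (44 of 99) or outside genes (39 of 99), with 2 in coding exons and 8 in UTRs. Of the 68 otherwise masked members, 41 were intronic, 23 lay outside genes and 0 were in coding exons or UTRs. The nearest start belonged to a protein-coding gene at 456 GC-rich members (94.4%, 92.0 to 96.3%), and at 49 simple-repeat members (49.5%, 39.3 to 59.7%) and 37 otherwise masked ones (54.4%, 41.9 to 66.5%). Over all members it was protein-coding at 564 (83.6%, 80.5 to 86.3%), against 71.3% of all annotated starts, 92.3% (89.8 to 94.4%) with both factors and 91.9% (89.3 to 94.0%) with BATF only. The other types were led by processed pseudogenes (37), lincRNAs (17), miRNAs (12) and antisense RNAs (11).

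Starts on both strands, as at divergent gene pairs, were found within 1000 bp of 98 members (14.5%, 11.9 to 17.4%). The share was 20.8% (17.5 to 24.5%) at promoters with both factors and 16.7% (13.7 to 20.1%) at those with BATF only. Among members it was 18.8% (15.4 to 22.6%) in the GC-rich class, or 91 of 483, and 4 of 99 in simple repeats. The nearest start was the outermost start of its gene at 308 members (45.6%, 41.8 to 49.5%) and an internal, alternative start at the others. For 412 members (61.0%, 57.2 to 64.7%) a gene start of the RefSeq promoter table, which gives 1 start a gene and is not complete, was also within 1000 bp. This share was 74.1% in the GC-rich class, 31.3% in simple repeats and 13.2% in other masked sequence.

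The long strings of PU.1 and other ETS factors were rare, unlike their GGAA core. The PU.1 string GAGGAAGT was searched on both strands of the 200 bp windows, as were all strings below. It was found at 2 of 675 members (0.296%, 0.0359 to 1.07%), at 2 of 547 promoters with both factors (0.366%), at 3 of 557 with BATF only (0.539%) and at 23 of 4342 distal PU.1-only summits (0.530%). Of the windows at all transcript starts, 1.91% held it. The interval of the members lay below that share, but these windows differ in GC. In GC-rich windows over 75% GC the string was found at 1 of 447 members (0.224%, 0.00566 to 1.24%) and at 0.570% of protein-coding starts, a share within the interval. The 2 members, named after their values were seen, were at *Pnrc1*, which encodes a nuclear receptor coactivator, and at *Uncx*, a homeobox gene. The match was 89 bp from the summit at *Pnrc1* (chr4:33248233-33248240, in a GC-rich window with the summit in a coding exon, score 5.24) and 66 bp from it at *Uncx* (chr5:139543196-139543203, masked sequence outside genes, score 4.26). The shorter GGAAGT, which the longer string contains, was found at 29 members (4.30%, 2.90 to 6.11%) and in 16.1% of all start windows, and over 75% GC at 4.25% (2.58 to 6.56%) and 8.27% of protein-coding starts. The core GGAA was found at 413 of 675 members (61.2%, 57.4 to 64.9%) against 87.8% of all start windows, but over 75% GC the gap was much smaller, with 57.5% (52.8 to 62.1%) against 63.8%. A window without a match says only that these letters are not in it.

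The string CCGGAAGT, to which ETS factors of housekeeping promoters bind, was found at 4 members (0.593%, 0.162 to 1.51%), against 3.54% of windows at protein-coding starts and 2.76% at all starts. It overlaps the PU.1 string in GGAAGT. The 4 members were at *Kdf1*, *Tm9sf3*, *Rest* and *Lrrfip2*, all in GC-rich windows, with the match beginning 13 bp after, 9 bp before, 12 bp after and 96 bp before the summit. *Rest* encodes a repressor of neuronal genes. The match lay at chr4:133519229-133519236 for *Kdf1*, chr19:41264067-41264074 for *Tm9sf3*, chr5:77266290-77266297 for *Rest* and chr9:111118076-111118083 for *Lrrfip2*. The sequences of the windows that overlap no annotated exon are shown as the members in which this string lay close to the summit. They are given on the plus strand of GRCm38, with the string in capitals on whichever strand it was read, for *Kdf1* at chr4:133519166-133519266 (summit in an intron, score 7.51) and for *Tm9sf3* at chr19:41264026-41264126 (outside genes, score 5.24).
Kdf1: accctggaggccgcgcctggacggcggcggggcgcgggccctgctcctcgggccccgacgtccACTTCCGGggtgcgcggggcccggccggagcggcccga
Tm9sf3: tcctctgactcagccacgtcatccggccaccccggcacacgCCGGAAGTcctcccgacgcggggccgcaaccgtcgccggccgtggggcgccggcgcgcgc

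Strings of AP-1 and IRF factors were infrequent in GC-rich members, as they were at GC-rich starts. TGACTCA, the AP-1 site, was found at 6 members (0.889%, 0.327 to 1.92%), at 5 promoters with both factors (0.914%) and at 1 with BATF only (0.180%), and in 2.84% of all start windows. The ETS-IRF string GGAANNGAA was found at 20 members (2.96%, 1.82 to 4.54%), against 0.731% at promoters with both factors, 1.44% with BATF only and 5.26% of all start windows. The IRF string GAAANNGAA was found at 40 members (5.93%, 4.27 to 7.98%), against 0.914%, 1.44% and 5.65%. Over 75% GC the members had no clear shortfall against protein-coding starts: 0.671% (0.139 to 1.95%) against 1.09% for AP-1, 1.12% (0.364 to 2.59%) against 1.22% for ETS-IRF, and 0.447% (0.0542 to 1.61%) against 0.302% for IRF. The matches to the IRF string followed the class: 3 of 483 GC-rich members held it, as did 22 of 99 in simple repeats and 13 of 68 in other masked sequence. The IRF8 motif of the study, a pyrimidine-rich motif with several degenerate positions, followed it more closely still, with 0 of 483 GC-rich members (upper bound 0.761%), 76 of 99 in simple repeats (76.8%, 67.2 to 84.7%) and 18 of 68 in other masked sequence. Over all members it was found at 100 (14.8%, 12.2 to 17.7%), against 1.28% at promoters with both factors, 6.10% (4.26 to 8.43%) with BATF only, 42.0% at distal PU.1-only summits and 2.25% of all start windows. Most matches to this motif at the members were thus in repeats.

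Strings of general promoter factors were compared within GC-rich windows, where base composition is closer. The median GC of GC-rich members was 79.5% and that of the 25632 GC-rich windows at protein-coding starts 71%, so the comparison was also made within windows over 75% GC, which left 447 members (median 80%) and 5961 protein-coding starts (median 78%). The Sp1 string GGGCGG was found at 374 of 483 GC-rich members (77.4%, 73.4 to 81.1%) and in 74.2% of the start windows, but over 75% GC at 79.6% (75.6 to 83.3%) against 89.5%. The CCAAT box was found at 34 members (7.04%, 4.92 to 9.70%) and 17.9% of start windows, and over 75% GC at 6.04% (4.02 to 8.67%) and 10.1%. For the NRF1 string GCATGCGC the shares over 75% GC were 0.671% (0.139 to 1.95%) and 2.50%, for the YY1 string AAGATGGC 1.34% (0.494 to 2.90%) and 3.09%, and for CCGGAAGT 0.895% (0.244 to 2.28%) and 2.50%. The members were therefore below protein-coding starts for each of these 5 strings at similar GC. For YY1 and CCGGAAGT the intervals overlapped, since those of the starts were 2.66 to 3.56% and 2.12 to 2.93%. The repeat CGGCGGCGG went the other way, at 29.8% (25.6 to 34.2%) of members and 24.6% (23.5 to 25.7%) of starts over 75% GC. These intervals also overlapped, by a small margin. Among all GC-rich windows the shares were 29.8% and 11.8%. The windows were placed on summits in one case and on starts in the other, and the part of that placement was not tested. Promoters with both factors had shares near those of the members over 75% GC for 5 of the 6 strings, with 80.6% for Sp1, 5.75% for the CCAAT box, 1.59% for YY1, 1.19% for CCGGAAGT and 31.2% for the CGG repeat. For NRF1 they had 2.38% (1.24 to 4.12%), near the protein-coding starts and over 3 times the share of the members, though the intervals of the 2 groups overlap.

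Among all strings of 6 bases, those that gained most at GC-rich members over GC-rich protein-coding starts consisted of C and G alone. CCCGCG was found at 82.0% of members and 49.9% of starts, GCGCCC at 79.5% and 47.5%, and CCGCCG at 87.0% and 56.5%, each counted together with its reverse complement. The strings that lost most included CCCACC (18.6% against 30.1%), ACTTCC, the reverse complement of GGAAGT (4.35% against 15.6%), and CCGGAA (10.4% against 20.8%). Promoters with both factors had shares near those of the members in GC-rich windows. These were 83.1% for CCCGCG, 75.9% for GCGCCC, 87.9% for CCGCCG, 20.0% for CCCACC, 5.06% for ACTTCC and 11.9% for CCGGAA. The members had higher GC than the protein-coding starts in this comparison. Over 75% GC the gaps were smaller: CCCGCG was at 82.1% of members and 72.7% of starts, GCGCCC at 81.2% and 69.4%, and CCGCCG at 87.9% and 81.0%. Of the 15 strings that gained most there, 7 held A or T, led by GAGGCC (43.4% against 33.7%), so the gain was no longer confined to C and G. ACTTCC was at 4.25% and 8.27% and CCGGAA at 10.1% and 13.4%, and neither was any longer among the 15 strings that lost most. Those were led by CCCTCC (36.9% against 49.8%) and CCTCCC (44.5% against 55.6%), and CCCACC stayed among them (18.8% against 28.8%). These strings were singled out after their values were seen.

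Away from the summit the sequence changed. In windows 1000 bp to either side, GGGCGG was found at 8.74% and 6.67% of members, against 57.6% at the summit, and GGAA at 90.4% and 89.9%, against 61.2%. GAGGAAGT was found at 9 and 6 members there and at 2 at the summit. Median GC was 47% and 46% in the flanking windows and 78% at the summit, and these strings were not compared at equal GC.

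The highest-scoring GC-rich members outside exons show this kind of sequence. In the following windows on the plus strand of GRCm38, capitals mark GGGCGG or its reverse complement. That of *Ecpas*, which encodes an adaptor of the proteasome, was chr4:58912056-58912156 in an intron (score 12.6, 77.2% GC). That of *Zbtb39*, a zinc finger gene, was chr10:127739730-127739830 in an intron (score 10.7, 86.1% GC). That of *Dazl*, which encodes an RNA-binding protein of germ cells, was chr17:50292925-50293025 in an intron (score 9.42, 85.1% GC). The string was present in the first and in neither of the others.
Ecpas: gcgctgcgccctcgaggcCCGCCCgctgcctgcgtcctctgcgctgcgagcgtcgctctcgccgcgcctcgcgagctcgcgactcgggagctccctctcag
Zbtb39: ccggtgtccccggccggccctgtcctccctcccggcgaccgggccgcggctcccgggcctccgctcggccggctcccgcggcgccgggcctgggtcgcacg
Dazl: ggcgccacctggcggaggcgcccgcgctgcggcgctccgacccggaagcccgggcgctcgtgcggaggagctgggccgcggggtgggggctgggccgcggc

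The simple repeats were mostly of a few kinds. The unit AAAG, counted with its rotations and reverse complement, was the most frequent at 35 of 99 members (35.4%), followed by AC at 24 (24.2%) and CCG at 6. Units found 4 times were ACAGAG and ACAT. At distal PU.1-only summits in simple repeats the order of the first and second was the opposite, with AC at 854 of 2273 (37.6%) and AAAG at 517 (22.7%). GC was under 50% at 86 of the 99 members and at least 65% at 10. The core GGAA was present at 58 of 99 (58.6%, 48.2 to 68.4%), which AAAG and AC repeats hold only where they are imperfect, and GAGGAAGT at 0 of 99. The windows of 2 high-scoring repeat members outside exons follow, as examples of the purine-rich kind, with GGAA or its reverse complement in capitals. They were chr9:24340738-24340838 near *Gm10701*, an antisense gene (outside genes, score 10.9), and chr2:156112589-156112689 near *Rbm12*, which encodes an RNA-binding protein (score 8.01). GGAA was present in the first printed window and absent on both strands from the second.
Gm10701: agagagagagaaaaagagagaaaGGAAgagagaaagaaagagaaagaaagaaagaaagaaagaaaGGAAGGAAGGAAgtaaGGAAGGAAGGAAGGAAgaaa
Rbm12: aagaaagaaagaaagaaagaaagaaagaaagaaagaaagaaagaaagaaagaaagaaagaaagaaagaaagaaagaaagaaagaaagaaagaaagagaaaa

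The highest-scoring member of ordinary composition outside exons was at *Nckap1l*, which encodes a blood-cell subunit of the WAVE complex that drives actin assembly. Its window was chr15:103454348-103454448, 571 bp downstream of the start (score 5.42, 38.6% GC). GGAA and its reverse complement are in capitals.
Nckap1l: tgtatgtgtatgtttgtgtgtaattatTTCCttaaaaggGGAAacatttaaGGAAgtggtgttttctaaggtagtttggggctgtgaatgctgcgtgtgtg

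The score in the list ranks summits within the PU.1 library, and its unit is not stated. Members had a median score of 4.26, with quartiles of 3.19 and 5.24 and a range from 1.32 to 14.5. The whole PU.1 list had a median of 4.13 and a highest score of 436, and the highest-scoring member had rank 282 in it. Only 5 members scored over 10. Scores were coarse: 118 different values occurred among 675 members, and 97 members (14.4%) shared the value 4.26. By class, the median was 4.26 for GC-rich members, 4.13 for simple repeats and 3.19 for other masked sequence. Promoter summits with both factors had a median of 4.58. Among the 1222 promoter summits away from controls, 4 groups of equal size were made by score, with ties kept in list order. The share without BATF was 64.1% (58.4 to 69.4%) in the lowest group, 61.3% and 55.1% in the next groups and 40.5% (35.0 to 46.3%) in the highest, so weaker promoter summits were more often without BATF.

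The 20 highest-scoring members with a protein-coding start all scored at least 8.05. A further member, at *Etnk1*, shared the score of 8.05 and was left out because ties were broken by chromosome name sorted as text. GC-rich windows made up 17 of them, with 75% to 82.5% GC, and the summit was in a coding exon at 7 and in a UTR at 8. GAGGAAGT and CCGGAAGT were found at 0 of the 20, and GGAA at 8. The highest score, 14.5, was on chromosome 5 at position 139150642, in a coding exon of *Dnaaf5*, 413 bp downstream of its start, with starts of *Prkar1b* and of the transcript *Gm15672* nearby. *Dnaaf5* encodes a factor for the assembly of ciliary dynein and *Prkar1b* a regulatory subunit of protein kinase A.

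The genes are given here by what they are known for, and no role was counted over all genes. Beside *Ecpas* (12.6), genes of protein modification were *Rnf166*, which encodes a ubiquitin ligase (chromosome 8, position 122476001, score 11.01, 63 bp downstream of the start and shared with *Ctu2*), *Klhl8*, an adaptor of ubiquitin ligases (9.83), and *Otud1*, a deubiquitinase (8.35). A further summit lay 24 bp upstream of *Gm49325* (8.05), where *Sumo3*, a ubiquitin-like modifier, also starts. Regulators of chromatin and RNA were *Zbtb39* (10.7), the Polycomb gene *Bmi1* (8.41), *Rbm15b* (8.92) and *Srsf6* (8.05), which encode RNA-binding proteins of mRNA modification and splicing, and *Tarbp1* (8.23), an RNA methyltransferase. *Tsc22d2* (9.59) belongs to a family of transcriptional regulators. The *Bmi1* summit, 31 bp upstream of a start, lay in a simple repeat of the unit AGG with 81.5% GC. Its nearest BATF summit was 714 bp away.

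Trafficking genes were *Entr1* (9.88, shared with *Pmpca* on the opposite strand) and *Hip1r* (8.68), which links endocytosis to actin. *Lactb* (8.77), a mitochondrial protein gene, was the 1 gene of the 20 in otherwise masked sequence. Genes known mainly from other tissues were *Ctnnd2* of neurons (9.47), *Dazl* of germ cells, *Epcam* of epithelia and *Prtg* of the embryo, the last 3 with the same score of 9.42. The *Epcam* summit was on chromosome 17 at position 87636709, in a UTR 27 bp downstream of the start. A summit says nothing of whether a gene was expressed in these cells.

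PU.1-only promoter summits were found at 612 of 21755 protein-coding genes, or 2.81%, and the gene lists are read against that share. Of the members, 543 were near 1 protein-coding gene, 38 near 2 or more and 94 near none. No gene had more than 2, and 9 genes had 2. A BATF summit lay within 1000 bp of some start of 24 of the 612 genes (3.92%), necessarily over 500 bp from the member. The choice lowered this share, so it is not set against that of other genes.

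Genes of the Th9 program had no member. This list of 19 genes, which includes *Il9*, *Il21*, *Irf4*, *Irf8*, *Spi1*, *Batf*, *Stat6* and *Gata3*, had 0 with a PU.1-only promoter summit, and 2.81% of 19 genes is less than 1 gene, so the count is near the background. The same count of 0 was found for the AP-1 family (11 genes), the TGF-β and SMAD genes (13), T cell markers (6), myeloid markers (18) and B cell markers (8). Promoter PU.1 summits with BATF within 500 bp were left out by the choice, so a count of 0 does not show that PU.1 was absent. In the Th9 list 2 genes had a BATF summit near a start. The paper reports binding of both PU.1 and BATF at the *Il9* and *Il21* promoters. As the lists give no expression, cell types were not checked further. Among ETS family genes, 2 of 26 had a member (7.69%, 0.946 to 25.1%). *Ets1*, a main ETS factor of T cells, had a summit 13 bp upstream of a start (chromosome 9, position 32696009, score 6.70, 75% GC), and *Elf2* had one 601 bp downstream of a start (chromosome 3, position 51276767, score 3.15, 78% GC).

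The other lists of signalling genes each had 1. Among 9 IRF genes it was *Irf2*, an antagonist of interferon-induced transcription (chromosome 8, position 46740800, 534 bp downstream, score 5.43). Among 23 genes of T cell receptor signalling it was *Fyn*, a kinase of the Src family (chromosome 10, position 39370218, 415 bp downstream, score 3.19). Among 10 genes of IL-4 and STAT6 signalling it was *Irs2*, an adaptor that binds the IL-4 receptor (chromosome 8, position 11008556, 98 bp upstream, score 5.07). All 5 genes had GC-rich windows, 4 of them with the summit in an intron, and none held GAGGAAGT, CCGGAAGT or TGACTCA. The intervals of these lists include the background share.

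Gene groups defined by name spread around the background. Ubiquitin-specific proteases had 6 of 55 genes with a member (10.9%, 4.11 to 22.2%), which were *Usp1*, *Usp2*, *Usp7*, *Usp34*, *Usp35* and *Usp42*, and cyclins and CDKs had 4 of 37 (10.8%, 3.03 to 25.4%). The latter were *Ccne1*, *Cdk8*, *Cdk2ap1* and *Cdk5r2*, of which *Cdk2ap1* and *Cdk5r2* encode partners of CDKs. Without such partners 2 of 29 were left (6.90%, 0.846 to 22.8%), an interval that includes the background. Of the 17 groups counted, only the ubiquitin-specific proteases had an interval above 2.81% that did not rest on such genes, and they were singled out after their values were seen. Their high share was not particular to PU.1-only promoters. A BATF summit lay near a start of 8 of these 55 genes, against 5.30% of all protein-coding genes. Counts were 0 of 83 cytosolic ribosomal protein genes (upper bound 4.35%) and 0 of 78 mitochondrial ribosomal protein genes (4.62%). They were 0 of 50 proteasome subunits (7.11%), 0 of 28 RNA polymerase subunits, 1 of 54 translation initiation factors and 1 of 46 genes of complex I. Splicing factors had 2 of 32 (6.25%, 0.766 to 20.8%) and Mediator subunits 1 of 30 (3.33%). Genes named Nup had 1 of 21 (4.76%, *Nup62cl*), but 0 of 19 without names of other endings (upper bound 17.6%). The intervals of all these groups include the background. Zinc finger genes named Zfp had 12 of 394 (3.05%, 1.58 to 5.26%) and solute carriers 10 of 371 (2.70%). Olfactory receptor genes, which act mainly in olfactory neurons, had 2 of 1134 (0.176%, 0.0214 to 0.636%), below the background.

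Members were found on all 20 chromosomes examined. Per 100 protein-coding genes of the chromosome there were 4.21 on chromosome 5, 4.20 on chromosome 12 and 3.99 on chromosome 4, the highest values, and 1.37 on chromosome X and 1.78 on chromosome 7, the lowest. Summits were well separated, with 673 groups when members within 500 bp of each other were counted once.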

How the data were processed

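The 5 ChIP-Seq libraries comprised 1 per antibody or control, each from WT Th9 cells. Reads were aligned to mm10 with Bowtie2 according to the submitters' processing notes. FindPeaks is the peak caller in the methods, with MACS used only to convert files, but summits carry MACS2 names. The authors deposited, for each library, 1 bp summits with a score, whose unit, threshold and control are not given in the sources used here. The caller's settings could change which weak summits are listed, and the mapping of repeat reads could change how many lie in repeats. Labels and paper differ in the number of cells, the sequencer and the time of culture. Depth per library is unknown.

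Summits were assigned to GENCODE M21 starts and windows were read from GRCm38.p6, whose lower-case bases mark repeats. No summit lay beyond a chromosome end. Where several starts were equally near, protein-coding genes were taken first. Exon types were assigned in the order coding exon, UTR, other exon, intron. Of 611 protein-coding gene symbols with a member, 473 were in the RefSeq promoter table (GRCm38), and 116 members lay inside 1 of its promoters. Genes were named when nearest to the 20 highest-scoring members with a protein-coding start, when in a list of Th9, ETS, IRF, AP-1, T cell receptor, TGF-β, IL-4, myeloid or B cell genes, or when nearest to a threshold, 2 on each side. Sequences are examples whose window overlaps no exon. They were picked from the highest-scoring GC-rich, simple-repeat and ordinary members, or from those with the promoter ETS string. The otherwise masked class has no example. The sequence of 1 member and that gene's entry among the highest-scoring are not reported here. The members and the lists were chosen with earlier results of these data known. Counting was tested on simulated data. Alternatives covered the distances, the score, the annotation, window sizes, class limits and strings. Scripts ran in Python 3.11.15 with pysam 0.24.0, scipy 1.17.1, pandas 2.3.3 and numpy 2.4.6.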

Additional observations from a re-analysis of the deposited data

How the results depend on the processing

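Of 85 values obtained under other settings, 56 stayed within the 95% interval of the reported share or median, or within 1.5 times the reported count. The causes of the others were not tested, beyond the change of members itself. With starts within 500 bp, the GC-rich share was 86.2%, simple repeats 6.70%, starts on both strands 17.9% and the median distance 110 bp. With starts within 2000 bp these were 54.8%, 23.3%, 10.9% and 297 bp. With scores above the median of the list, 357 summits at 340 protein-coding genes were left, with a GC-rich share of 79.0%, a median distance of 135 bp and a median score of 5.07. With transcripts of protein-coding genes only, the GC-rich share was 81.1%, simple repeats 8.61% and the median distance 139 bp. A RefSeq start also within 1000 bp, an alternative chosen after seeing the data, left 412 summits, with 86.9% GC-rich, 7.52% in simple repeats, 19.4% with starts on both strands and a median distance of 123.5 bp. Windows of 100 bp gave 66.4% GC-rich, 20.6% in simple repeats and 0% with the PU.1 string, and windows of 400 bp gave 10.7% in simple repeats. A limit of 60% for simple repeats gave 9.19%. GGAAGT in place of the PU.1 string gave 4.30%, CGGAAG in place of the promoter ETS string 10.7%, and starts on both strands within 500 bp 9.63%. Exclusion distances of 200 and 1000 bp and counting 1 summit per group moved none of the 9 results past these bounds. No paired analysis was possible because there was 1 library per antibody. With 1 library of unknown depth, weak PU.1 or BATF summits may be missing from the lists, and a promoter counted as PU.1-only can be one where BATF did not pass the threshold.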
